A study of Mus musculus with 9 samples.

Results

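The 10 genes described here encode the enzymes that make serine and that carry its carbon into the folate cycle in cultured mouse oligodendrocyte progenitor cells (OPCs). They are Phgdh, Psat1 and Psph of serine synthesis, the serine hydroxymethyltransferases Shmt1 and Shmt2, the folate dehydrogenases, cyclohydrolases and synthetases Mthfd1, Mthfd2, Mthfd1l and Mthfd2l, and the formyl-folate dehydrogenase Aldh1l2. They were taken by symbol from the 56980 genes of the count table, and all 10 had enough reads to be tested. OPCs are the dividing precursors of the cells that make myelin. The 9 polyA RNA libraries fell into 3 groups of 3. BB-p53n EZH2i cells were Trp53 -/- OPCs that express PDGF-BB, a growth factor for PDGF receptors, and were kept for 48 hours with 5 µM tazemetostat, an inhibitor of the histone methyltransferase EZH2. BB-p53n DMSO cells were the same Trp53 -/- OPCs with PDGF-BB and the vehicle DMSO. The p53n cells were Trp53 -/- OPCs labelled as control, with neither PDGF-BB nor vehicle. Every group was therefore p53-null, and all were kept in SATO medium, which holds N-acetyl-cysteine and forskolin, with 10 ng/mL PDGF-AA. PDGF-BB, DMSO and the cultures themselves, which differed in sex-linked RNA (below), go together in the comparison with p53n and cannot be told apart there. The labels name primary mutant lines, and give neither the PDGF-BB construct nor whether a line is a clone or each library a separate culture, so the p-values speak for the spread among these 9 libraries alone, which could be technical.

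Serine is made from a glycolytic intermediate. Phgdh oxidises it, Psat1 adds the amino group and Psph removes the phosphate. Shmt2 in mitochondria and Shmt1 in the cytosol then move a carbon from serine to tetrahydrofolate, leaving glycine. In mitochondria Mthfd2 or Mthfd2l oxidises the carried carbon and Mthfd1l releases it as formate, which the cytosolic enzyme Mthfd1 puts back on folate for purine and thymidylate synthesis. Aldh1l2 instead burns the mitochondrial carbon to carbon dioxide and yields NADPH. Mthfd2 is known as an enzyme of embryonic and dividing cells, and transcription of several of these genes is known to be driven by ATF4, the factor of the amino acid and stress response.

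Total counts lay between 19471768 and 34557109 per library, and mitochondrial genes took 1.34% to 1.54% of them in BB-p53n EZH2i, 2.44% to 2.62% in BB-p53n DMSO and 4.46% to 5.76% in p53n. The genes that mark the groups were checked first. Endogenous Pdgfb had 0.198 CPM (counts per library size after TMM scaling) in BB-p53n EZH2i, 0.16 in BB-p53n DMSO and 0.0139 in p53n, and the table does not show whether reads of the construct would be counted there. Trp53 averaged 14.3, 13.6 and 7.34 CPM in the same order of groups, and the labels do not say which exons were deleted, so this count does not check the genotype. Ezh2, whose protein is inhibited and not its transcript, averaged 112 CPM in BB-p53n EZH2i, 172 in BB-p53n DMSO and 113 in p53n. The cultures also differed in sex-linked RNA. Xist ranged from 2.82 to 17.4 CPM in BB-p53n EZH2i, from 46.2 to 65.0 in BB-p53n DMSO and from 2777 to 3101 in p53n, while 4 Y-linked genes lay between 2.5 and 17.9, between 21.3 and 55.1 and between 0.208 and 0.925 CPM. Of the OPC markers, Sox10 averaged 458.9 CPM in BB-p53n EZH2i, 299.5 in BB-p53n DMSO and 2.21 in p53n, so a defining gene of the lineage was near absent from p53n, whereas Pdgfra averaged 513.8, 980.4 and 1491.9 CPM. In comparisons with p53n the culture difference goes together with PDGF-BB and cannot be told apart from it. Its part in the results was not tested.

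A trend across all genes bears on every comparison with the BB-p53n EZH2i libraries. Across 12514 genes the log2 fold change of BB-p53n EZH2i over BB-p53n DMSO had a Spearman correlation of 0.73 with the GC content of the transcript and of -0.44 with exon length, against 0.14 and -0.07 for BB-p53n DMSO over p53n. Values are therefore given as counted and, second, after each library's smooth trend on GC content and length was removed, called the trend-removed value. Whether the trend arose in the cells or in the libraries was not tested. Removal also moved the median change of all tested genes in BB-p53n DMSO over p53n to -0.12, against -0.02 as counted, so trend-removed values there are best read relative to it. The members span the range, with Mthfd2l at 40.07% GC, lower than all but 6.4% of genes, and Phgdh and Shmt2 at 57.21% and 57.36%, higher than 87.9% and 88.5% of genes.

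**Figure D1:**
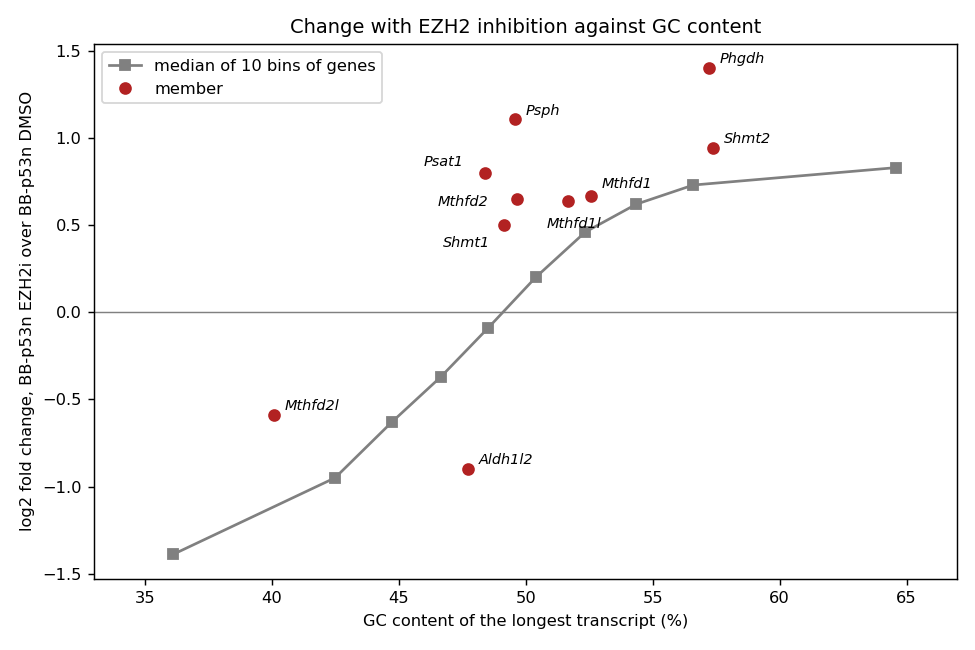
The log2 fold change of BB-p53n EZH2i over BB-p53n DMSO, as counted, is plotted against transcript GC content for the 10 members (red points) and as medians of 10 equal bins of 12514 genes by GC content (grey squares). The medians run from -1.39 in the bin with the lowest GC content to 0.83 in the bin with the highest; Aldh1l2 lies below the line, and the other 9 members lie above it.

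In the deposited coordinates (GRCm39), which cover each gene from its first to its last exon, the members lie on chromosomes 3, 5, 6, 10, 11, 12 and 19. Phgdh spans chr3:98220486-98247306, Psat1 chr19:15882042-15924701 and Psph chr5:129842622-129864513, all on the minus strand. Shmt2 spans chr10:127352992-127358313, Mthfd2 chr6:83282673-83302890 and Aldh1l2 chr10:83323314-83370004 on the minus strand, and Mthfd1 chr12:76302072-76366577, Mthfd1l chr10:3923118-4117081 and Mthfd2l chr5:91078976-91169227 on the plus strand.

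The promoter windows are shown as a description, and whether they bear on the members' changes was not tested. RefSeq promoters (GRCm38.p6) were at hand for 9 of the 10 members, Aldh1l2 not being among them, and the 250 bases before the start were searched on both strands. None of the 10 windows, Psat1 having a pair of starts, held TGATGNAA (the C/EBP-ATF response element), TGACGTCA (the cyclic AMP response element) or CACGTG (the E-box), which 3.45%, 1.55% and 6.02% of all 32851 windows of that length held. This says only that these letters are not in these windows. The CCAAT box, a motif added after the sequences were seen, was found 3 times in Mthfd2, 2 times each in Phgdh, Psph and 1 of the Psat1 windows, and 1 time each in Shmt1 and Mthfd1, on either strand. It was not found in Shmt2, Mthfd1l, Mthfd2l or the other Psat1 window. Of all windows 33.85% held at least 1 match and 10.09% at least 2. The 4 windows with 2 or more matches are printed with the match in capitals (CCAAT, or ATTGG on the other strand), followed by that of Mthfd2l, the member that fell in BB-p53n DMSO against p53n. In that comparison the members with 2 or more matches had log2 fold changes of 0.22 (Phgdh), 0.84 (Psat1), 0.87 (Psph) and 2.65 (Mthfd2). Of those without a match in any window, Mthfd2l had -0.77, while Shmt2 and Mthfd1l, which are not printed, had 1.96 and 2.03. A match is a description of the letters only.
Phgdh, chr3:98339970-98340219, minus strand: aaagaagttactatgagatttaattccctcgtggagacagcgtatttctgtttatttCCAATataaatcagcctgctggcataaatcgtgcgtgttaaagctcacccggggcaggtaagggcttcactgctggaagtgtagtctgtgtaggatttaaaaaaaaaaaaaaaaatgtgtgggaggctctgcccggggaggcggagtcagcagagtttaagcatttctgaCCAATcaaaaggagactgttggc
Psat1, chr19:15925060-15925309, minus strand: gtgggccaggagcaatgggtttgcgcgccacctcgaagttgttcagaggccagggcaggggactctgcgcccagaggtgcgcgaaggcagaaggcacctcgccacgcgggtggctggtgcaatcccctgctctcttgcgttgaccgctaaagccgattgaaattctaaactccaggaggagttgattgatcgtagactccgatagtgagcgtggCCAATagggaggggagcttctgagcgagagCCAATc
Psph, chr5:129787254-129787503, minus strand: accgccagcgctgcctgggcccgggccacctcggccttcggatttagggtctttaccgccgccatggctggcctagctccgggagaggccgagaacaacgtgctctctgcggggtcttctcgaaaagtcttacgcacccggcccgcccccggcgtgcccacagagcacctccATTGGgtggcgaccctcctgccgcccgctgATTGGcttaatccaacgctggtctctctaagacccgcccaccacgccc
Mthfd2, chr6:83317605-83317854, minus strand: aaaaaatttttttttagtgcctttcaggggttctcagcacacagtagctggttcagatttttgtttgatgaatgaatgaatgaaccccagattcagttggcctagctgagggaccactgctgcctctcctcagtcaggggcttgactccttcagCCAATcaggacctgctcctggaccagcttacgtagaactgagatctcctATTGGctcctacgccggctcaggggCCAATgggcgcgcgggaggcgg
Mthfd2l, chr5:90930946-90931195, plus strand: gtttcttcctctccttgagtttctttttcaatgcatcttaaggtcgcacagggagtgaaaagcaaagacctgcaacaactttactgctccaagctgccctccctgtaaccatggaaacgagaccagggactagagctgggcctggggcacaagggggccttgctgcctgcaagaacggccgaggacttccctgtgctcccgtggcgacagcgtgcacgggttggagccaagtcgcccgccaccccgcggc
In the printed strand the nearest match began 6 bases before the start in Psat1, 22 in Mthfd2, 23 in Phgdh and 48 in Psph.

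The first comparison asks what differed in p53-null OPCs with PDGF-BB expression and vehicle. In BB-p53n DMSO against p53n, 9 of the 10 members rose and Mthfd2l fell (edgeR quasi-likelihood test, adjusted p under the threshold of 0.05). Of all 17001 genes tested, 35.3% were called higher and 34.0% lower, so a call on its own is common in this comparison. The median log2 fold change of the members was 0.85, against -0.02 over all genes. The members were chosen with earlier results of these data known, so their medians here and in the second comparison are descriptions only. With the trend removed, 8 members were called higher and 1 lower, where 31.6% and 40.2% of all genes were, and the members' median was 0.67. The levels of the groups did not overlap for any of the 10 members, which was also so for 76.1% of all genes.

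The largest rises were those of Mthfd2, Shmt1, Mthfd1l and Shmt2. Mthfd2 had 110.2, 114 and 113.2 CPM in BB-p53n DMSO, against 16.4, 18.6 and 18.8 CPM in p53n. Its level was 6.27-fold higher, a log2 fold change of 2.65 ± 0.08 (SE, adjusted p = 7.37e-17, edgeR). The trend-removed log2 fold change was 2.45. Shmt1 had 90.8, 98.4 and 95.8 CPM in BB-p53n DMSO, against 17.0, 18.2 and 16.4 CPM in p53n. That is 5.53-fold higher (log2 fold change 2.47 ± 0.08, SE, adjusted p = 2.12e-16 in edgeR, trend-removed 2.27). Shmt1 lies at chr11:60678930-60702544 (GRCm39, minus strand), on a chromosome whose 1016 genes had a median log2 fold change of 0.46 in this comparison, against 0.10 over all genes of the same level. Its exons also share 184 bases with Smcr8 on the other strand, which the count does not tell apart. Smcr8 itself had a log2 fold change of 0.61.

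Mthfd1l, the formate-releasing enzyme of mitochondria, had 62.3, 69.0 and 65.7 CPM in BB-p53n DMSO, against 17.0, 17.0 and 14.2 CPM in p53n. It was 4.08-fold higher (log2 fold change 2.03 ± 0.10, SE, trend-removed 1.83). Shmt2 had 386, 392 and 383 CPM in BB-p53n DMSO, against 101, 98.8 and 97.7 CPM in p53n, which is 3.89-fold higher (log2 fold change 1.96 ± 0.07, SE, trend-removed 1.82). Shmt2, Mthfd2 and Mthfd1l, which lead from serine to mitochondrial formate, thus stood at 3.89 to 6.27 times their p53n level. Mthfd1, which takes the formate up again in the cytosol, had 137, 147 and 142 CPM in BB-p53n DMSO and 93.7, 106 and 94.9 CPM in p53n. It rose by less, 1.45-fold (log2 fold change 0.53 ± 0.07, SE, adjusted p = 5.68e-07 in edgeR, trend-removed 0.34).

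The 3 enzymes of serine synthesis rose by less than 2-fold. Psat1, the most abundant member, had 658.8, 709.0 and 685.1 CPM in BB-p53n DMSO, against 405, 374 and 369 CPM in p53n (log2 fold change 0.84 ± 0.07, SE, trend-removed 0.66). Psph had 64.1, 65.4 and 65.5 CPM in BB-p53n DMSO, against 35.9, 34.2 and 36.6 CPM in p53n (log2 fold change 0.87 ± 0.07, SE, trend-removed 0.68). Its exons share 1074 bases with Cct6a on the other strand, a gene of 8216 to 14388 counts per library, and Cct6a had a log2 fold change of 0.23. Phgdh had 56.2, 55.8 and 52.7 CPM in BB-p53n DMSO, against 45.8, 47.3 and 48.5 CPM in p53n. The groups did not overlap, but the difference was small. The log2 fold change of 0.22 ± 0.09 (SE) was called with an adjusted p of 0.0283 in edgeR, and with the trend removed it was 0.07 with an adjusted p of 0.386. The call was also lost with DESeq2's test (adjusted p = 0.0948), with its size factors in edgeR (0.0688), and without p53n replicate 2 (0.0548), BB-p53n DMSO replicate 1 (0.061) or BB-p53n DMSO replicate 2 (0.0578).

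Mthfd2l, the second mitochondrial dehydrogenase, went the other way. It had 20.1, 17.5 and 16.5 CPM in BB-p53n DMSO, against 30.9, 29.4 and 32.2 CPM in p53n (log2 fold change -0.77 ± 0.11, SE, adjusted p = 2.98e-06 in edgeR, trend-removed -0.58). Every BB-p53n DMSO library was below every p53n library. Aldh1l2 had 124, 119 and 118 CPM in BB-p53n DMSO, against 88.4, 92.1 and 87.5 CPM in p53n (log2 fold change 0.43 ± 0.07, SE, trend-removed 0.28). Its exons share 1056 bases with D10Wsu102e on the other strand, which had a log2 fold change of 0.75.

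**Figure D2:**
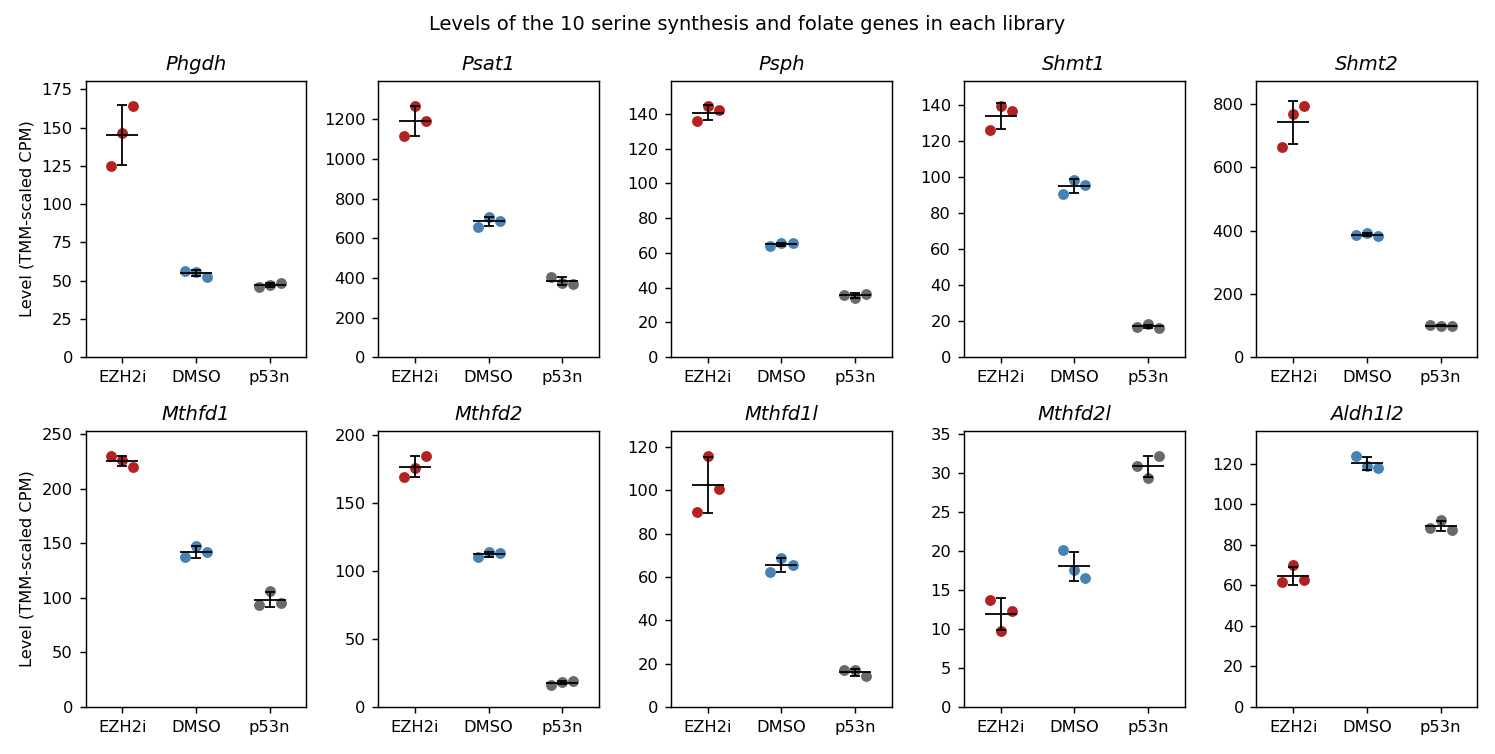
TMM-scaled CPM of each member in the 3 libraries of BB-p53n EZH2i, BB-p53n DMSO and p53n (points), with the mean and SD (black); each axis starts at 0 and has its own scale. For 8 members the levels stand highest in BB-p53n EZH2i and lowest in p53n, Mthfd2l shows the reverse order, and Aldh1l2 is highest in BB-p53n DMSO.

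The second comparison asks what EZH2 inhibition changed in PDGF-BB cells. The second comparison shares the BB-p53n DMSO libraries with the first, so the direction of a member in one is not independent of that in the other. In BB-p53n EZH2i against BB-p53n DMSO, 8 of the 10 members rose, and Mthfd2l and Aldh1l2 fell. Of all tested genes 37.3% were called higher and 35.6% lower, and the members' median log2 fold change was 0.66, against 0.02 over all genes. With the trend removed, 9 members were called higher and 1 lower, where 28.2% and 29.3% of all genes were, and the median of the members was 0.46. Again no member's levels overlapped between the groups, as for 75.3% of all genes.

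As counted, Phgdh and Psph of serine synthesis rose most among the members. Phgdh had 125, 146 and 164 CPM in BB-p53n EZH2i, against 56.2, 55.8 and 52.7 CPM in BB-p53n DMSO. Its log2 fold change was 1.40 ± 0.08 (SE, adjusted p = 1.53e-11, edgeR), while the trend fitted over all genes came to 0.84 at its GC content and length. The trend-removed log2 fold change was 0.55 ± 0.07 (SE, adjusted p = 3.34e-07). Psph had 136, 144 and 142 CPM in BB-p53n EZH2i, against 64.1, 65.4 and 65.5 CPM in BB-p53n DMSO. Its log2 fold change of 1.11 ± 0.07 (SE) was nearly the same with the trend removed, 1.03. Cct6a, which shares exon bases with it, had a log2 fold change of -0.04 (adjusted p = 0.605, edgeR). Psat1 had 1113.2, 1265.9 and 1189.9 CPM in BB-p53n EZH2i, against 659, 709 and 685 CPM in BB-p53n DMSO. Here too the log2 fold change of 0.80 ± 0.07 (SE) hardly depended on the trend, at 0.86 without it. With the trend removed, Psph and Psat1 had the largest rises among the members.

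The folate enzymes rose by less than 2-fold. Shmt2 had 665.4, 770.0 and 793.8 CPM in BB-p53n EZH2i, against 386, 392 and 383 CPM in BB-p53n DMSO, a log2 fold change of 0.94 ± 0.07 (SE, adjusted p = 2.2e-10, edgeR). Of this, little was left with the trend removed, 0.14 ± 0.05 (SE, adjusted p = 0.0299). Shmt1 had 126, 139 and 137 CPM in BB-p53n EZH2i, against 90.8, 98.4 and 95.8 CPM in BB-p53n DMSO, and its log2 fold changes were 0.50 as counted and 0.42 with the trend removed. Mthfd2 had 169.7, 176 and 185 CPM in BB-p53n EZH2i, against 110.2, 114 and 113.2 CPM in BB-p53n DMSO, with log2 fold changes of 0.65 and 0.49. Mthfd1 had 230.3, 226.1 and 220.5 CPM in BB-p53n EZH2i, against 137, 147 and 142 CPM in BB-p53n DMSO, with log2 fold changes of 0.67 and 0.26. Mthfd1l had 90.2, 116 and 101 CPM in BB-p53n EZH2i, against 62.3, 69.0 and 65.7 CPM in BB-p53n DMSO, with log2 fold changes of 0.64 and 0.31. Each of these rises was called both as counted and with the trend removed.

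The members that fell with EZH2 inhibition behaved differently under the correction. Aldh1l2 had 61.6, 69.9 and 62.5 CPM in BB-p53n EZH2i, against 124, 119 and 118 CPM in BB-p53n DMSO. It fell to 0.538 of the BB-p53n DMSO level (log2 fold change -0.90 ± 0.07, SE, adjusted p = 5.03e-10 in edgeR), and remained lower with the trend removed (-0.54, adjusted p = 1.97e-07). D10Wsu102e, the gene on its other strand, had log2 fold changes of -0.49 as counted and 0.80 with the trend removed. Mthfd2l had 13.7, 9.74 and 12.3 CPM in BB-p53n EZH2i, against 20.1, 17.5 and 16.5 CPM in BB-p53n DMSO. As counted it fell (log2 fold change -0.59 ± 0.12, SE, adjusted p = 0.000146, edgeR). With the trend removed the direction turned, with 22.1, 22.0 and 23.4 CPM in BB-p53n EZH2i against 14.6, 14.4 and 12.9 CPM in BB-p53n DMSO (a log2 fold change of 0.69 ± 0.09, SE, adjusted p = 1.09e-06). The direction of Mthfd2l under EZH2 inhibition therefore rests on how the GC trend is treated.

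**Figure D3:**
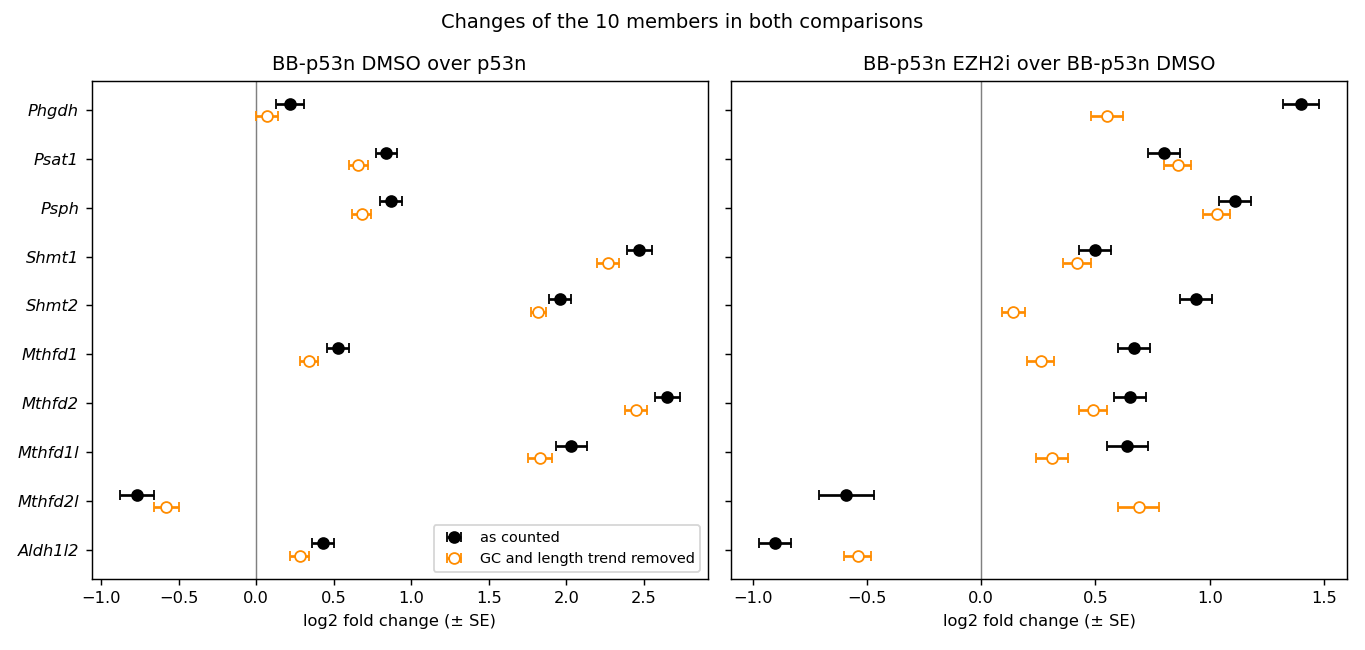
Log2 fold changes (± SE) of the 10 members for BB-p53n DMSO over p53n and for BB-p53n EZH2i over BB-p53n DMSO, as counted (filled) and trend-removed (open); the panels have different scales. On the left the pairs lie close together, while on the right Phgdh shrinks to 0.55, Shmt2 to 0.14, and Mthfd2l crosses 0.

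Across both steps and as counted, BB-p53n EZH2i cells stood 9.86-fold above p53n for Mthfd2, 7.80-fold for Shmt1, 7.48-fold for Shmt2 and 6.36-fold for Mthfd1l, and 2.30-fold for Mthfd1. Psph was 3.96-fold, Psat1 3.11-fold and Phgdh 3.07-fold higher. After trend removal the levels were 7.64-fold higher for Mthfd2, 6.49-fold for Shmt1, 4.43-fold for Mthfd1l and 3.88-fold for Shmt2, and 1.51-fold for Mthfd1, so Shmt2 then stood below Mthfd1l. Trend-removed Psph was 3.26-fold, Psat1 2.86-fold and Phgdh 1.53-fold higher. In this comparison 8 members were called higher and 2 lower, where 40.3% and 41.7% of all genes were, and no member's groups overlapped, as for 82.2% of all genes. As counted, the 2 that were lower were Mthfd2l at 0.387 and Aldh1l2 at 0.724 of the p53n level. With the trend removed, 8 members were higher and 1 lower, against 34.9% and 43.4% of all genes, and Mthfd2l was not called (log2 fold change 0.11, adjusted p = 0.271, edgeR). As counted, the members summed to 2731 to 3064 CPM in BB-p53n EZH2i, 1709 to 1787 in BB-p53n DMSO and 816 to 852 in p53n. Psat1 and Shmt2 held most of this sum, with means of 1189.6 and 743.1 CPM in BB-p53n EZH2i. With the trend removed they averaged 1172.8 and 495.0 CPM in BB-p53n EZH2i, against 647.9 and 450.2 CPM in BB-p53n DMSO.

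Per length of transcript, in RPKM (TMM-scaled CPM per kilobase of exon), Psat1 and Shmt2 were the most abundant members in every group. Psat1 averaged 279.7 ± 17.9 RPKM in BB-p53n EZH2i, 161 ± 5.91 in BB-p53n DMSO and 90.0 ± 4.59 in p53n, and Shmt2 averaged 239 ± 22.0, 124 ± 1.5 and 31.9 ± 0.622 RPKM (SD, n = 3 libraries each). The order below them, as counted, shifted. In BB-p53n EZH2i it ran Phgdh (58.3), Mthfd1 (50.8), Mthfd2 (50.7), Shmt1 (34.5), Psph (32.5), Mthfd1l (23.1), Aldh1l2 (8.62) and Mthfd2l (1.79 RPKM). In BB-p53n DMSO it ran Mthfd2 (32.2), Mthfd1 (32), Shmt1 (24.5), Phgdh (22.1), Aldh1l2 (16), Psph (15), Mthfd1l (14.8) and Mthfd2l (2.71 RPKM). In p53n it ran Mthfd1 (22.1), Phgdh (19), Aldh1l2 (11.9), Psph (8.22), Mthfd2 (5.14), Mthfd2l (4.64), Shmt1 (4.43) and Mthfd1l (3.63 RPKM). As counted, neighbours whose libraries overlapped, so that their order is not resolved, were Phgdh, Mthfd1 and Mthfd2, and Shmt1 and Psph, in BB-p53n EZH2i, Mthfd2 and Mthfd1, and Psph and Mthfd1l, in BB-p53n DMSO, and Mthfd2, Mthfd2l and Shmt1 in p53n. Mthfd2, near the bottom of the order in p53n, was thus level with Mthfd1 in both PDGF-BB groups as counted. Trend-removed Psat1 and Shmt2 still led every group, but Phgdh did not come next in BB-p53n EZH2i. There Mthfd2 (44.8 RPKM) stood above Mthfd1 (40.2), whose libraries overlapped those of Phgdh (38). In BB-p53n DMSO trend-removed Mthfd1 had 33.6 and Mthfd2 32 RPKM, and in p53n Mthfd2l had the lowest value, 3.14 RPKM. The trend was taken relative to each gene's mean over all libraries, so its removal does not correct one gene against another. The orders as counted are not corrected between genes either, also where libraries did not overlap. Both orders are therefore a description and do not resolve which member of a group was higher.

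Ratios within a library set paralogs against each other without the scaling between libraries. The 3 ratios were compared in the 3 contrasts by exact two-sided permutation tests, 9 in all, which cannot give a p below 0.1 with 3 against 3 libraries, nor an adjusted p below 0.1. For Mthfd2 over Mthfd2l, both mitochondrial, the ratio was 10.4, 12.4 and 13.1 in BB-p53n DMSO, against 1.01, 1.2 and 1.12 in p53n, all as counted. The trend-removed ratio was 14.6, 14.8 and 16.5 in BB-p53n DMSO, against 1.64, 2.00 and 1.98 in p53n. The trend was taken relative to each gene's mean over all libraries, so its removal corrects differences between libraries only. The paralogs were thus near equal in p53n as counted, and the trend-removed ratio does not settle their order within a group. The ratio was 10.8-fold higher in BB-p53n DMSO as counted (exact p = 0.1, adjusted p = 0.129), and 8.19-fold higher with the trend removed. In BB-p53n EZH2i it was 23.6, 34.4 and 28.6 as counted, 2.39-fold above BB-p53n DMSO (exact p = 0.1), but with the trend removed it was 13, 13.4 and 13.3, below all 3 trend-removed BB-p53n DMSO values.

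Mitochondrial Mthfd1l was 0.455, 0.47 and 0.464 of cytosolic Mthfd1 in BB-p53n DMSO, against 0.182, 0.161 and 0.15 in p53n, a 2.83-fold higher ratio (exact p = 0.1, adjusted p = 0.129, 2.81-fold with the trend removed). In BB-p53n EZH2i it was 0.392, 0.514 and 0.458, which overlaps the BB-p53n DMSO values (exact p = 0.8). The serine hydroxymethyltransferases went less far apart. Mitochondrial Shmt2 stood at 5.30, 4.97 and 4.99 times cytosolic Shmt1 in BB-p53n DMSO, against 7.45, 6.8 and 7.44 times in p53n, so the ratio was 1.42-fold lower in BB-p53n DMSO (exact p = 0.1). It was 6.59, 6.9 and 7.26 in BB-p53n EZH2i as counted, above BB-p53n DMSO, and 5.06, 4.94 and 4.96 with the trend removed, below the trend-removed BB-p53n DMSO values of 6.34, 5.85 and 6.09. Every difference with an exact p of 0.1 was one in which the groups did not overlap.

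**Figure D4:**
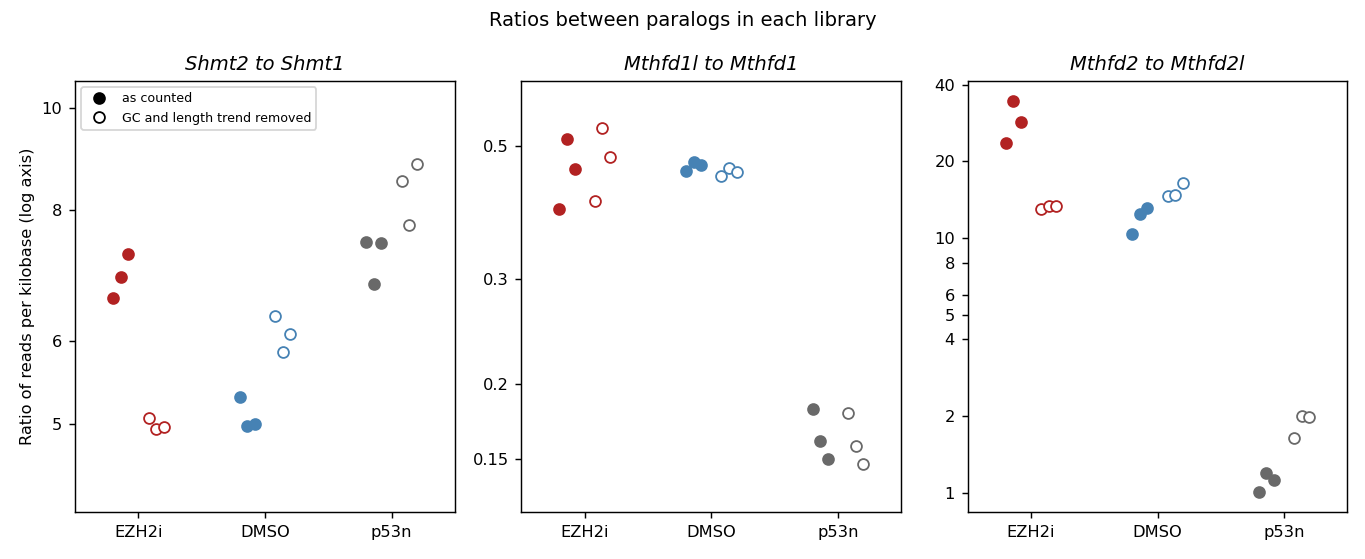
Ratios of reads per kilobase between paralogs in each library, as counted (filled) and trend-removed (open), on log axes. The Mthfd2 to Mthfd2l and Mthfd1l to Mthfd1 ratios are higher in both PDGF-BB groups than in p53n under either treatment of the trend, whereas the BB-p53n EZH2i and BB-p53n DMSO ratios change order for Shmt2 to Shmt1 and Mthfd2 to Mthfd2l.

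The genes around the members were then read by lists. In the folate cycle outside the members, 4 of 9 tested enzymes rose and 4 fell in BB-p53n DMSO against p53n. Those that rose included Tyms, which makes thymidylate, with 70.5 ± 3.09 CPM in BB-p53n DMSO and 16.1 ± 0.646 CPM in p53n (SD, n = 3 each), and Mtrr, which keeps methionine synthase active, with log2 fold changes of 2.13 for Tyms and 1.27 for Mtrr. Aldh1l1, the cytosolic counterpart of Aldh1l2 and an astrocyte marker, had 0.17 CPM in BB-p53n DMSO and 4.44 CPM in p53n (log2 fold change -4.66, adjusted p = 1.48e-10, edgeR). With EZH2 inhibition 3 rose and 2 fell as counted, and 3 rose and 1 fell with the trend removed. Sardh, a mitochondrial enzyme that passes a carbon from sarcosine to folate, had log2 fold changes of 1.26 as counted and 0.66 with the trend removed, and Mtr, methionine synthase, -1.0 and -0.38. Tyms had 0.46 and 0.86. Mthfs, which returns a stored formyl-folate to the cycle and is named after its values were seen, had 0.10 (not called) and 1.30.

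Folate carriers and storage enzymes showed no common direction in BB-p53n DMSO against p53n, where 2 of 5 tested rose and 1 fell. Fpgs, which adds glutamates that hold folate in the cell, rose (log2 fold change 1.10), Ggh, which removes them, fell (-0.98), and the proton-coupled carrier Slc46a1 had 0.29 as counted and a trend-removed 0.15 that was not called. With EZH2 inhibition 3 rose and 1 fell as counted, and 2 rose and 1 fell with the trend removed. The mitochondrial folate carrier Slc25a32 had log2 fold changes of -1.35 as counted and -0.25 with the trend removed, the plasma membrane carrier Slc19a1 had 0.89 and 0.35, Slc46a1 had 0.87 and 0.08, and Fpgs had 0.73 and -0.04. Ggh had 0.04 as counted, which was not called (adjusted p = 0.772, edgeR), and 0.87 with the trend removed (adjusted p = 2.35e-08), the largest trend-removed change of the 5. In the glycine cleavage system, which strips a further carbon from glycine in mitochondria, 2 of 4 rose and 1 fell in BB-p53n DMSO against p53n, and 0 rose and 1 fell with the trend removed. Amt, its aminomethyltransferase, had a log2 fold change of -0.91, and Gldc and Gcsh, its decarboxylase and carrier protein, had 0.28 and 0.31. With EZH2 inhibition 3 of the 4 rose and 1 fell as counted, and 2 rose and 1 fell with the trend removed. Gldc had log2 fold changes of 0.77 as counted and 0.39 with the trend removed, Gcsh 0.84 and 0.79, and Dld, the shared lipoamide dehydrogenase, -1.45 and -0.46. Amt rose as counted (0.41, adjusted p = 0.00025, edgeR) and was not called with the trend removed (0.11, adjusted p = 0.254).

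Genes of purine synthesis and of S phase were mostly higher in BB-p53n DMSO. In purine synthesis, some of whose steps take a folate carbon, 11 of 12 tested genes rose and 0 fell in BB-p53n DMSO against p53n, as counted and with the trend removed, with a median log2 fold change of 0.77. Pfas, an enzyme of the pathway, had 141 CPM in BB-p53n DMSO and 55.0 CPM in p53n (log2 fold change 1.36). Of the S phase genes, read as a list because thymidylate and purines are used there, 15 of 15 rose, with a median of 2.75, larger than the members' median of 0.85. Rrm2, the small subunit of ribonucleotide reductase, had 324 CPM in BB-p53n DMSO and 34.6 CPM in p53n (log2 fold change 3.23). With EZH2 inhibition the purine genes were split, 6 higher and 5 lower as counted, and 7 and 3 with the trend removed, with Gmps, the GMP synthetase, turning between log2 fold changes of -1.29 and 0.21. The S phase genes were 13 higher and 1 lower, and 12 and 1 with the trend removed, and the helicase subunit Mcm5 had 1.18 and 0.79.

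The ATF4 and amino acid response list moved in the same direction as most members in both comparisons. Of its 15 genes, 13 rose and 2 fell in BB-p53n DMSO against p53n, with a median log2 fold change of 1.33 (13 and 2, and 1.16, with the trend removed). Atf4 itself had 386 CPM in BB-p53n DMSO and 153 CPM in p53n (log2 fold change 1.33), the leucine carrier Slc7a5 had 323 and 99.9 CPM (1.69), the translation repressor Eif4ebp1 had 36.4 and 7.31 CPM (2.32), and the asparagine synthetase Asns had 227 and 94.9 CPM (1.25). With EZH2 inhibition 12 rose and 2 fell as counted, with a median of 0.93, and 10 rose and 2 fell with the trend removed, with a median of 0.32. Asns had log2 fold changes of 1.04 and 1.06, Eif4ebp1 1.09 and 1.01, Slc7a5 1.07 and 0.36, and Slc3a2, the partner chain of Slc7a5, 1.13 and 0.57. Atf4 had 0.48 as counted and -0.31 with the trend removed, and so turned direction. The 2 that fell in BB-p53n DMSO against p53n, named after their values were seen, were Slc7a11, the cystine carrier (-0.93), and Ddit4, a restraint on mTOR signalling (-1.46).

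Carriers of serine and glycine were mixed, with 5 of 9 higher and 2 lower in BB-p53n DMSO against p53n, and 4 and 3 with the trend removed. Slc38a1 and Slc38a2, which take up neutral amino acids with sodium, rose with log2 fold changes of 0.56 and 0.51, Slc1a5 rose (0.81), and the glycine carrier Slc6a9 fell (-0.98). With EZH2 inhibition 5 were higher and 3 lower, and 3 and 1 with the trend removed. Slc38a1 had -0.90 and -0.10, Slc38a2 had -0.64 and 0.17, Slc6a9 had 0.90 and 0.28, and Slc1a4, a neutral amino acid carrier, had 0.40 and -0.08. The list of serine-using enzymes also held the membrane proteins Serinc1, Serinc3 and Serinc5. Of its 11 tested genes, 1 rose and 6 fell in BB-p53n DMSO against p53n, where 35.3% and 34.0% of all genes did. Those 6 included Serinc1 (log2 fold change -0.61), Serinc3 (-0.16) and Serinc5 (-0.32). The largest fall was that of Cbs, which joins serine to homocysteine, with 0.18 CPM in BB-p53n DMSO and 40.3 CPM in p53n (log2 fold change -7.76, adjusted p = 1.09e-17, edgeR). With EZH2 inhibition 5 rose and 5 fell, and 5 and 2 with the trend removed, with Serinc1, a membrane protein linked to serine lipids, at -1.38 and -0.28.

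**Figure D5:**
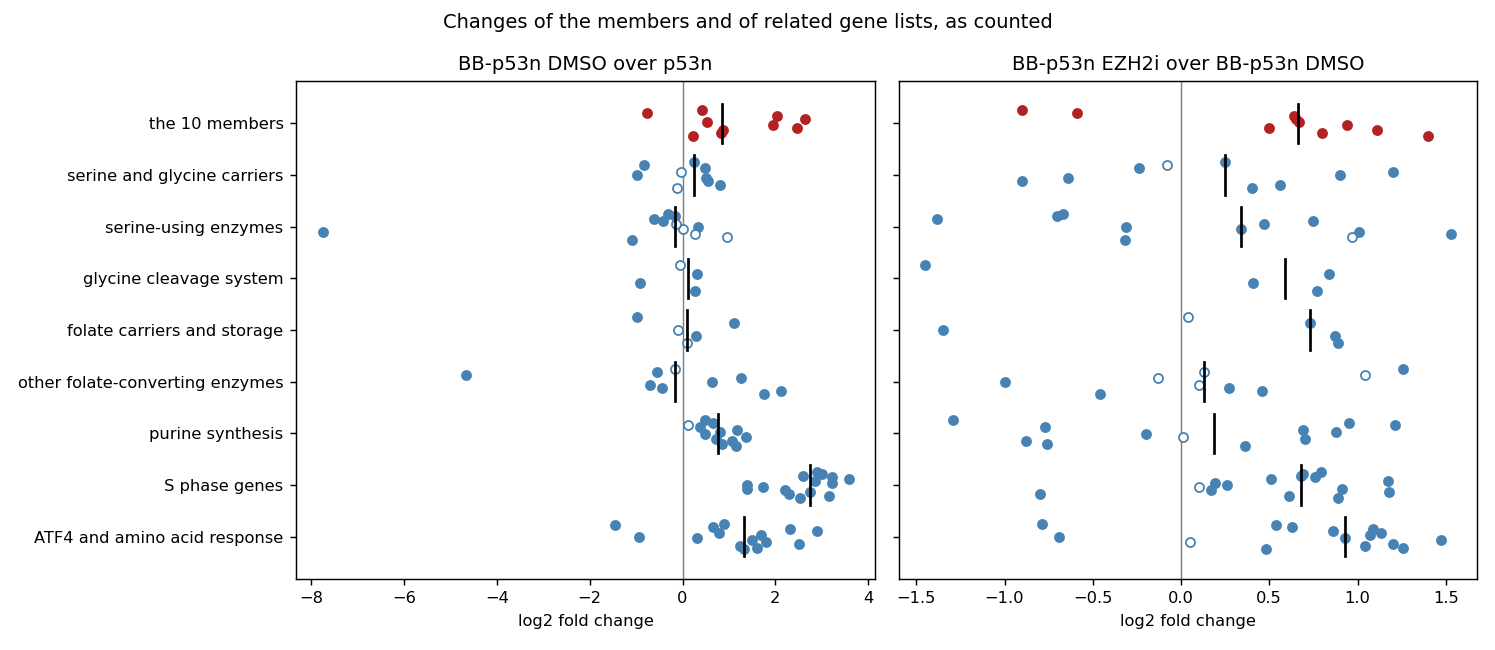
Log2 fold changes, as counted, of the members (red) and of tested genes of 8 related lists (blue) for BB-p53n DMSO over p53n and for BB-p53n EZH2i over BB-p53n DMSO; filled points were called at an adjusted p under 0.05, open points were not, and the bar is the list's median. On the left the S phase genes have the highest median, 2.75, followed by the ATF4 list at 1.33 and the members at 0.85; the axes differ.

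Markers of other cells that the cultures could hold moved as well. Of the astrocyte markers, 11 of 12 tested were lower and 1 higher in BB-p53n DMSO against p53n, and their summed level was 1857 to 2046 CPM in BB-p53n EZH2i, 1798 to 1809 in BB-p53n DMSO and 2475 to 2658 in p53n. The defining genes Gfap and Aqp4 had 1.01 and 0.0706 CPM in BB-p53n DMSO and 13.3 and 4.45 CPM in p53n, and Aqp4 was at 0 in BB-p53n EZH2i. All 7 tested oligodendrocyte markers were lower in BB-p53n DMSO, with summed levels of 290.2 to 323.6 CPM in BB-p53n EZH2i, 176 to 191 in BB-p53n DMSO and 770 to 814 in p53n. In the same comparison neuron markers were lower in 4 of 6 and higher in 1, and summed to 557 to 682, 1658 to 1809 and 2020.6 to 2049.5 CPM in the same order of groups. All sums here are as counted, and a few genes hold most of each. In p53n these were Map2 and Dcx (1489.1 and 435.3 CPM) for neurons and Cnp (547.5 CPM) for oligodendrocytes. For astrocytes they were Aldoc, Slc1a3 and Sox9 (820.0, 619.8 and 399.0 CPM). Microglia markers (1 higher and 1 lower of 2 tested) summed to at most 2.84 CPM and endothelial and mural markers (1 and 1 of 6) to at most 16.4 CPM in any library. Cx3cr1, Itgam, Cldn5 and Cdh5 each averaged at most 0.0743 CPM in every group. The microglia marker that rose, P2ry12, had 1.48 CPM in BB-p53n DMSO and 0.151 CPM in p53n (log2 fold change 3.21). Flt1, the highest endothelial and mural marker, had 12.4 and 9.19 CPM (0.44), and Vtn had 0.00987 and 0.762 CPM (-5.70). OPC markers were higher in 3 of 10 and lower in 6, and summed to 4796 to 5098, 6579 to 6623 and 8554 to 9133 CPM. With EZH2 inhibition 4 OPC markers were higher and 5 lower as counted, and 1 and 9 with the trend removed. Under the same treatment the astrocyte markers were 5 higher and 4 lower (3 and 2 with the trend removed), oligodendrocyte markers 4 and 1 (4 and 0), neuron markers 2 and 4 (2 and 2), microglia markers 0 and 1 (0 and 0), and endothelial and mural markers 0 and 2 (0 and 0). In bulk RNA, fewer cells of a type and less RNA per cell cannot be told apart, and the part of these markers in the members' results was not tested.

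The genes whose log2 CPM, as counted, ran most like each member over the 9 libraries were looked up among 11268 genes. Because the libraries form 3 tight groups, Pearson's r mostly reflects the 3 group means, and it is given as a description. Shmt1 and Mthfd2 shared Tmem173 among their nearest genes, at r = 0.9995 each, with Kif18b at 0.9997 for Shmt1 and Ier3 at 0.9993 for Mthfd2. The nearest of the others were Arf5 and Ankrd54 for Phgdh (0.9983 and 0.998), Elac2 and Dhrs13 for Psat1 (0.9996 and 0.9994), Arpin and Ten1 for Psph (0.9985 and 0.9983), Arhgdia and Ncs1 for Shmt2 (0.9992 and 0.999), Axin1 and Mink1 for Mthfd1 (0.9977 and 0.9966), Cdh4 and Ppp4r1 for Mthfd1l (0.9995 and 0.9993), Zfp932 and Zfp945 for Mthfd2l (0.9959 and 0.9957), and Bms1 and Fam135b for Aldh1l2 (0.9963 and 0.9958). Among the members themselves Shmt1 and Mthfd2 were most alike (r = 0.998), followed by Shmt1 and Mthfd1l (0.995). As counted, Mthfd2l ran against most members, with r = -0.98 to Psat1, and its nearest member was Aldh1l2 at only 0.419. This did not hold with the trend removed: Mthfd2l then had r = 0.224 to Psat1 and -0.884 to Aldh1l2, and its nearest member was Phgdh (0.539). Shmt1 and Mthfd2 remained most alike at 0.998.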

How the data were processed

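RNA-seq counts from 9 libraries (3 each of BB-p53n EZH2i, BB-p53n DMSO and p53n) were used. The authors deposited raw counts per gene: per the file headers, featureCounts 1.6.3 counted fragments over exons of the Ensembl release 108 annotation of GRCm39, with a mapping quality of at least 20 and no strand option. The submitters' processing notes name Trimmomatic and Subread; how they were set is not given in the sources used here. Without strand, overlapping genes of opposite direction cannot be separated. GC content and symbols came from a GRCm38 annotation joined by gene identifier.

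Genes were kept with filterByExpr (17001) and scaled by TMM. One quasi-likelihood model of edgeR 4.0.16 (R 4.3.3) with the group as its only term was fitted to all 9 libraries, with Benjamini-Hochberg adjustment over all tested genes, a threshold of 0.05, and SE from the log2 fold change and its F statistic. For trend-removed values, each library's log2 counts relative to the gene's mean over the 9 libraries were fitted on GC content and exon length. This smooth fit (mgcv 1.9.3) entered as an offset. Levels are TMM-scaled CPM. Ratios used exact permutation tests. The scripts were tested on simulated data.

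Replicates differed by more than sampling noise (median chi-square per gene from 1.59 to 5.58). The smallest library's 3 counts correspond to 0.154 CPM; such limits cover counting error only.

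The members and lists were chosen with earlier results of these data known. Genes outside the members were named by rule: in each comparison the called gene of each list with the smallest adjusted p, up to 4 for the folate, glycine cleavage, carrier and ATF4 lists, the genes Pdgfb, Trp53 and Ezh2, and for each member the 2 genes most like it. Not every such gene is printed. Sex-linked, overlapping and defining marker genes were added as checks. Alternatives were another scaling, DESeq2 1.42.0, no filter, 2 groups only, a replicate block, the trend removed, no genes of chromosomes X, Y and MT, and each library left out.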

Additional observations from a re-analysis of the deposited data

How the results depend on the processing

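Of 420 refits of the members' log2 fold changes over all alternatives, 409 kept their direction and side of the threshold. The 7 that lost the call were all Phgdh in BB-p53n DMSO against p53n, with the settings named in the report and with the trend removed under the replicate block (0.381), and the 4 that turned were all Mthfd2l with the GC and length trend removed: 0.69 for EZH2 inhibition and 0.11 for BB-p53n EZH2i against p53n, each the same with the replicate block added. Members called lower were then 1 in both comparisons, in place of 2. With the trend removed, the log2 difference of BB-p53n EZH2i from BB-p53n DMSO turned for the Shmt2 to Shmt1 ratio (-0.29, where the counts gave 0.44), the Mthfd2 to Mthfd2l ratio (-0.21, where they gave 1.26) and the Mthfd1l to Mthfd1 ratio (0.05, where they gave -0.03). Leaving out 1 library at a time, the last ranged from -0.13 to 0.07. The cause of the trend was not tested, and the removal assumes that it is not biological. Also with the trend removed, an alternative chosen after seeing the data, the correlation of Mthfd2l turned to 0.224 with Psat1 and to -0.884 with Aldh1l2. Libraries with the same number deviated together in 2 of the 3 pairs of BB-p53n EZH2i with BB-p53n DMSO (r = 0.395 and 0.306) but not in the other (-0.058), and in none of the pairs with p53n (-0.229 to 0.059). Since not every pair was over 0.1, the numbers were not taken to pair the libraries. The replicate block left 9 members higher and 1 lower in BB-p53n DMSO against p53n and 8 and 2 in the other comparisons, and 5962 of all genes higher and 5703 lower, 6271 and 5996, and 6800 and 7054. Of 1176 refitted counts for the lists, 73 moved by more than 1.5 times. With 3 libraries a group, no ratio test could pass 0.05.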
